A study of Mus musculus with 4 samples.

Results

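Carbonic anhydrases interconvert carbon dioxide and bicarbonate. The family was followed here in the mouse colon through 10 genes, *Car1*, *Car2*, *Car3*, *Car4*, *Car7*, *Car8*, *Car9*, *Car12*, *Car13* and *Car14*. They were chosen by the gene name printed on the array, which gave 13 probes, out of 30321 genes and 39423 probes with a value on all 4 arrays. The other members of the family on the array are described after them.

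The study asked how loss of *Pla2g3*, which encodes a secreted phospholipase A2 (sPLA2-III), changes colon tumors caused by azoxymethane (AOM), a colon carcinogen. Colon RNA was pooled within each of 4 groups of male mice, *Pla2g3*+/+ given vehicle, *Pla2g3*-/- given vehicle, *Pla2g3*+/+ given AOM and *Pla2g3*-/- given AOM, and each pool was hybridized to 1 Agilent array on a slide shared by all 4. All mice were 42 weeks old on a B6.129 background of backcross generation 3, and the knockout was constitutive, so that every cell of the animal carried it. AOM was given intraperitoneally at 10 mg/kg weekly for 6 weeks and the tissue was taken 28 weeks after the last dose, while vehicle mice received saline. The labels give 3 to 5 mice per pool and name the AOM tissue as cancer, whereas a figure legend of the study describes pools of 4 and whole descending colon. The share of tumor in a pool is not given. Each group was measured once, on 1 pool and 1 array, so no difference below could be set against a spread between replicates, and no p-value is given.

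A signal is given as the scaled signal, the spot intensity divided by the 75th percentile of all non-control spots on its array. A value of 1 is thus the level of a fairly bright spot. That percentile was 646 and 650 intensity units on the vehicle arrays and 1309 and 1169 on the AOM arrays for *Pla2g3*+/+ and *Pla2g3*-/-, respectively. Between 64.8% and 69.4% of spots were well above background by the scanner software, and no spot was saturated. A gene was called higher or lower when its signal differed more than 2-fold between a pair of arrays. The *Pla2g3* signal went against the labels: across its 3 probes it was 2.76- to 6.66-fold higher in the pool labeled *Pla2g3*-/- than in the *Pla2g3*+/+ pool after AOM, and with vehicle 2 probes differed by 1.23- and 1.06-fold, while the remaining probe was well above background in the pool labeled *Pla2g3*-/- alone. Which part of the gene was deleted is not given in the sources used here, and a probe outside it would not check the labels. Every direction between genotypes below follows the labels.

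By background knowledge, carbonic anhydrases supply the bicarbonate and protons that surface colonocytes exchange for luminal chloride and sodium, which is how the colon absorbs salt and alkalinizes its contents. Cytosolic enzymes (*Car1*, *Car2*, *Car3*, *Car7* and *Car13*) act inside the cell, *Car4* is held on the outer face of the membrane by a lipid anchor, and *Car9*, *Car12* and *Car14* are transmembrane enzymes with an outward catalytic domain. *Car8* encodes a related protein without catalytic activity that binds the inositol trisphosphate receptor. *Car1* and *Car4* are established products of mature colonocytes, *Car3* is abundant in adipocytes and slow skeletal muscle, and *Car9* is a classical target of the hypoxia-inducible factor.

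Probe sequences are shown for *Car4* and *Car1*, because the pair of *Car4* probes gave very unequal changes and the pair of *Car1* probes did not. Positions are those of the array design on mouse build mm9, and sequences run 5′ to 3′ in transcript sense, in lower case throughout because the whole run is the target. Both *Car4* probes lie on chromosome 11 on the plus strand, at chr11:84777667-84777726 (from base 470 of the transcript used for the design) and at chr11:84779487-84779546 (from base 1230, of which the last 30 of 60 bases are printed). Both *Car1* probes lie on chromosome 3 on the minus strand, at chr3:14770171-14770230 (from base 541) and chr3:14767486-14767545 (from base 615).
*Car4*, base 470: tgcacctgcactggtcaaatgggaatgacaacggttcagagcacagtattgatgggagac
*Car4*, base 1230: aaataaaatatggatatgtttttagaaaaa
*Car1*, base 541: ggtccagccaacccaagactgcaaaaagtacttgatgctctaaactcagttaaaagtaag
*Car1*, base 615: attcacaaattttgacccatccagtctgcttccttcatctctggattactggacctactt

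The *Car4* probes are 1820 bases apart in the genome and 760 apart in the transcript, and the *Car1* probes are 2685 apart in the genome but 74 in the transcript, so that intron sequence lies between each pair. All were designed to the spliced transcript. By mean signal over the 4 arrays, the brighter probe is that from base 1230 for *Car4* and that from base 615 for *Car1*. The dimmer probes are those from base 470 and base 541. The exon numbers were not worked out, since no annotation of mm9 was used here.

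In brief, the family was nearly level between the vehicle pools, was lowest in the *Pla2g3*+/+ AOM pool for every gene but *Car8*, and stood within 2-fold of vehicle in the AOM pool labeled *Pla2g3*-/-, except *Car1*, *Car3* and *Car8*, which were lower than with vehicle in that pool too. The *Car1* call in that pool was lost by quantile normalization, without scaling and by normexp background correction (log2 -0.67, -0.64 and -0.70, against -1.49). *Car8* alone was lower in the AOM pool labeled *Pla2g3*-/- than in the *Pla2g3*+/+ AOM pool. That call rests on its brighter probe and was lost by normexp and by the mean over its probes (log2 -0.49 and -0.39). All 10 genes gave a value in each of the 4 comparisons through their brightest probe. Of 52 values over 13 probes and 4 arrays, 50 were well above background. The other 2 belonged to the dimmer *Car8* probe on the AOM arrays. In these pools of whole tissue, fewer cells of a type and less RNA per cell cannot be told apart.

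**Figure D1:**
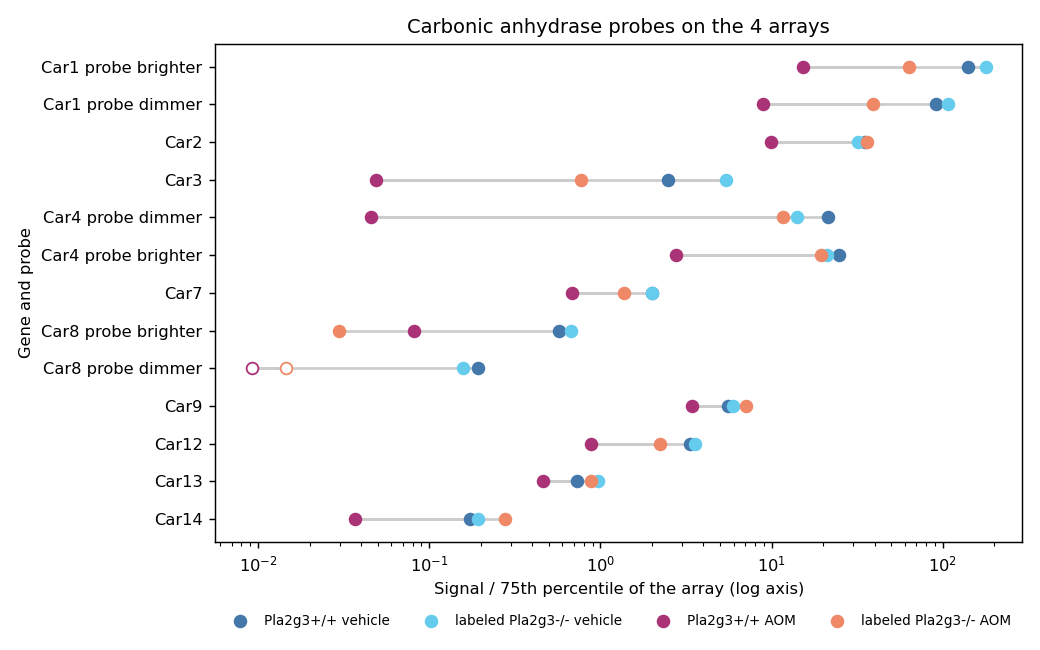
Scaled signal (log axis) of all 13 probes of the 10 carbonic anhydrase genes on the 4 arrays, with 1 point per array and open symbols for signals not well above background. The *Pla2g3*+/+ AOM array is the lowest for each gene's brightest probe except that of *Car8*, whose lowest value is on the *Pla2g3*-/- AOM array.

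Read as a group, 1 of the 10 members was called higher and 0 lower between the vehicle pools, where 3.77% of 20531 genes with a value were called, 2.23% higher and 1.55% lower. The member median was 0.14 on the log2 scale, with a range from -0.25 (*Car4*) to 1.12 (*Car3*), and the median of all genes well above background on both arrays, used as the reference from here on, was -0.02. Apart from *Car3*, the members lay between the 5th and 95th percentiles of all genes, -0.45 and 0.45.

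Between the AOM pools, 8 of 10 members were higher in the pool labeled *Pla2g3*-/-, 1 was lower (*Car8*) and 1 stayed within 2-fold (*Car13*), against 27.0% of 21642 genes called, 14.4% higher and 12.7% lower. The member median was 1.60 and that of all genes 0.03. *Car3* (3.98), *Car14* (2.91), *Car4* (2.80), *Car1* (2.07) and *Car2* (1.87) lay above the 95th percentile of all genes, 1.82. The remaining higher members, *Car12*, *Car9* and *Car7*, had ratios between 1.01 and 1.34.

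With AOM in *Pla2g3*+/+, 8 of 10 members were lower and 0 higher, against 37.7% of 21839 genes called, 23.0% lower and 14.7% higher. All 10 ratios were below 0, from -5.67 for *Car3* to -0.65 for *Car13*, with a median of -2.07 beside -0.22 for all genes. Without scaling between arrays, where the median of all genes was 0.80, *Car9* (0.33) and *Car13* (0.37) lay above 0, *Car2* (-0.81), *Car7* (-0.54) and *Car12* (-0.90) lay inside 2-fold, and 5 members were lower. In *Pla2g3*-/-, AOM and vehicle differed past 2-fold for 3 of 10, all lower (*Car1*, *Car3* and *Car8*), against 27.0% of 20669 genes called, 16.7% lower and 10.3% higher, with a member median of -0.34 beside -0.15 for all genes. Without scaling, where the median of all genes was 0.70, *Car2*, *Car9* and *Car14* passed 2-fold upward in this comparison (1.02, 1.08 and 1.36). These comparisons share arrays. The *Pla2g3*+/+ AOM array enters both the comparison of AOM pools and that of AOM with vehicle, so a low signal on it moves both.

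**Figure D2:**
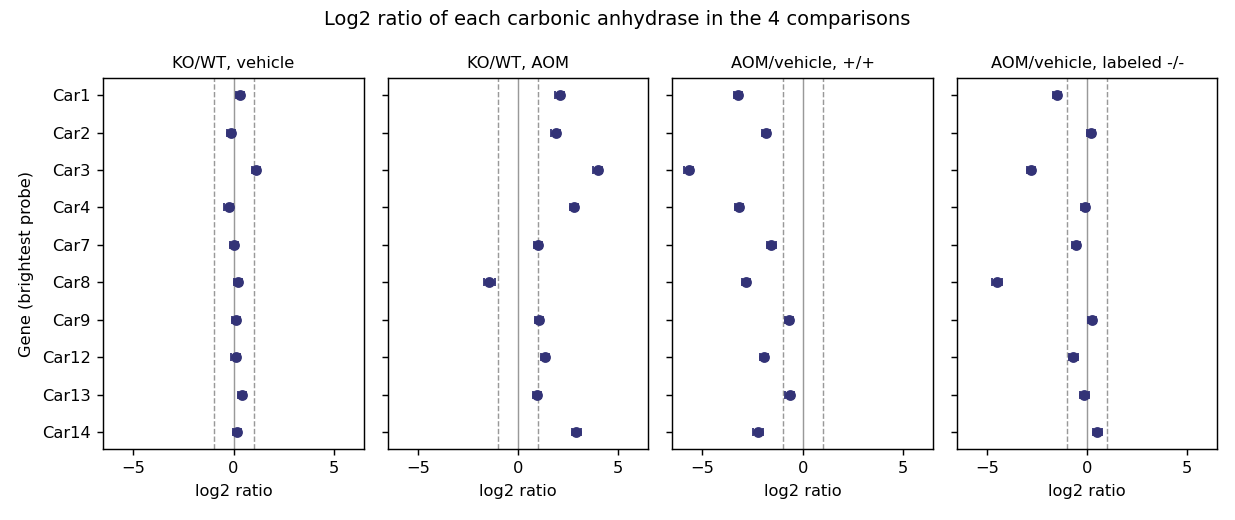
Log2 ratio of scaled signals for the brightest probe of each of the 10 genes in the 4 comparisons (KO/WT, *Pla2g3*-/- over *Pla2g3*+/+ by label), with bars of the scanner software's error for the pair of spots and dashed lines at 2-fold. Ratios with vehicle lie near 0 except that of *Car3* at 1.12, whereas after AOM 8 of 10 genes lie above the line between genotypes.

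**Figure D3:**
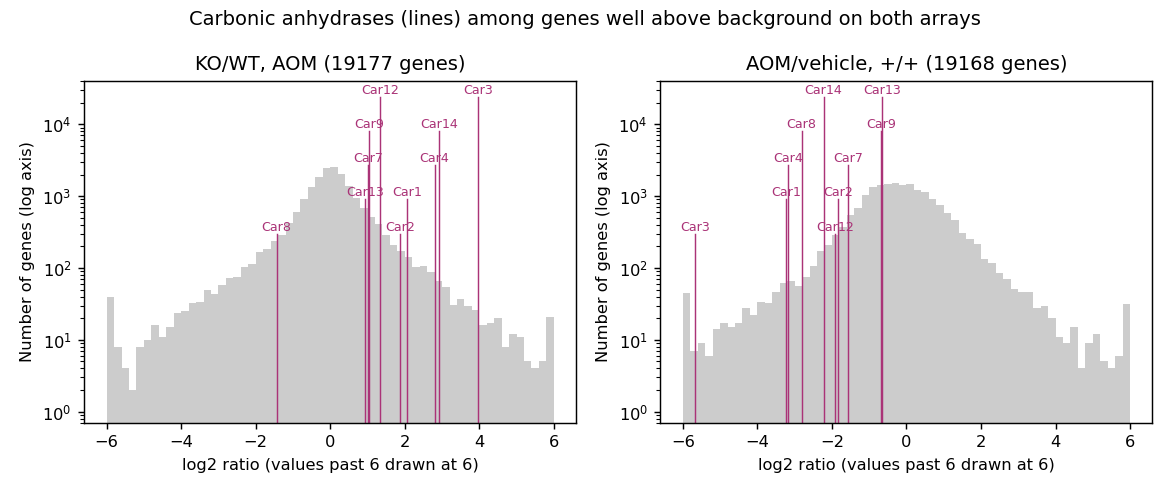
Histograms of log2 ratios over all genes well above background on both arrays (count on a log axis), between the AOM pools on the left and with AOM against vehicle in *Pla2g3*+/+ on the right, with a labeled line at each carbonic anhydrase by its brightest probe. All members but *Car8* lie right of 0 on the left, and all 10 lie left of 0 on the right.

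Among the cytosolic enzymes, *Car1*, a known product of surface colonocytes, gave 141 in the *Pla2g3*+/+ vehicle pool, 178 in the *Pla2g3*-/- vehicle pool, 15.2 in the *Pla2g3*+/+ AOM pool and 63.6 in the *Pla2g3*-/- AOM pool. Its second probe gave 91.6, 107, 8.96 and 38.9 in the same order. Both probes put the AOM pools below the vehicle pools and the *Pla2g3*+/+ AOM pool lowest. On the log2 scale *Car1* fell by 3.22 with AOM in *Pla2g3*+/+ (9.32-fold) and by 1.49 in *Pla2g3*-/- (2.80-fold, but inside 2-fold under the 3 normalizations named above), and the AOM pools differed by 2.07 (4.19-fold, *Pla2g3*-/- higher). The second probe gave -3.35, -1.46 and 2.12 for these, and the error that the scanner software assigns to a *Car1* ratio was 0.20, which covers the spots and not the mice.

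*Car2*, the fast cytosolic enzyme of many epithelia, gave 35.2, 32.1, 9.93 and 36.3 in the order *Pla2g3*+/+ vehicle, *Pla2g3*-/- vehicle, *Pla2g3*+/+ AOM and *Pla2g3*-/- AOM, which is the order used from here on. Only the *Pla2g3*+/+ AOM pool stood apart, at 3.55-fold below vehicle (log2 -1.83) and 3.65-fold below the AOM pool labeled *Pla2g3*-/- (log2 1.87). In the pools labeled *Pla2g3*-/-, AOM and vehicle differed by 1.13-fold (log2 0.17, error 0.20).

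*Car7*, a cytosolic enzyme best known from neurons, gave 2.0, 2.01, 0.682 and 1.38. It was 2.94-fold lower with AOM in *Pla2g3*+/+ (log2 -1.56), and the AOM pools differed by 2.02-fold (log2 1.01), which is at the threshold given an error of 0.20. *Car13*, a cytosolic enzyme found in several organs including the gut, gave 0.730, 0.968, 0.464 and 0.884. It passed 2-fold in none of the 4 comparisons: the AOM pools differed by 1.90-fold (log2 0.93) and AOM lay 1.57-fold below vehicle in *Pla2g3*+/+ (log2 -0.65). Between the AOM pools, *Car7* and *Car13* thus lay on either side of the threshold by less than the error.

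*Car3* was the widest-ranging gene by its brightest probe, with signals of 2.48, 5.39, 0.0486 and 0.765, a range of 111-fold over the 4 pools. Between the vehicle pools it was 2.18-fold higher in the pool labeled *Pla2g3*-/- (log2 1.12, error 0.20), the one call of that comparison, and 0.997 by normexp. After AOM that pool was 15.7-fold above *Pla2g3*+/+ (log2 3.98). Both AOM pools lay below their vehicle pools, by 50.9-fold in *Pla2g3*+/+ (log2 -5.67) and 7.05-fold in *Pla2g3*-/- (log2 -2.82).

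*Car4*, the lipid-anchored enzyme of the apical colonocyte surface, gave 24.9, 20.9, 2.78 and 19.3 by its brighter probe. The vehicle pools and the AOM pool labeled *Pla2g3*-/- lay close together, and the *Pla2g3*+/+ AOM pool lay 8.97-fold below its vehicle pool (log2 -3.17, error 0.20). The AOM pools differed by 6.96-fold (log2 2.80), against 1.19-fold between the vehicle pools (log2 -0.25). Its dimmer probe gave 21.5, 14.0, 0.0460 and 11.7, the same order of pools with a far deeper low point. That probe put *Pla2g3*+/+ AOM 467-fold below vehicle (log2 -8.87) and the AOM pools 254-fold apart (log2 7.99).

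The *Car4* probes parted on the *Pla2g3*+/+ AOM array. The AOM to vehicle ratio of the probes differed by 5.70 on the log2 scale in *Pla2g3*+/+ and by 0.15 in *Pla2g3*-/-. Of 4600 genes with a value by several probes in the *Pla2g3*+/+ comparison, *Car4* was the only 1 with a gap that large, and the median gap was 0.33. Its gap between the AOM pools was 5.19, a size met by 2 of 4704 genes with *Car4* among them. The dimmer probe remained well above background on that array. Both probes put the *Pla2g3*+/+ AOM pool lowest, so the direction is shared and the size of the fold is not, and the cause was not tested. The *Car1* probes differed by at most 0.13 in any of the 4 comparisons.

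**Figure D4:**
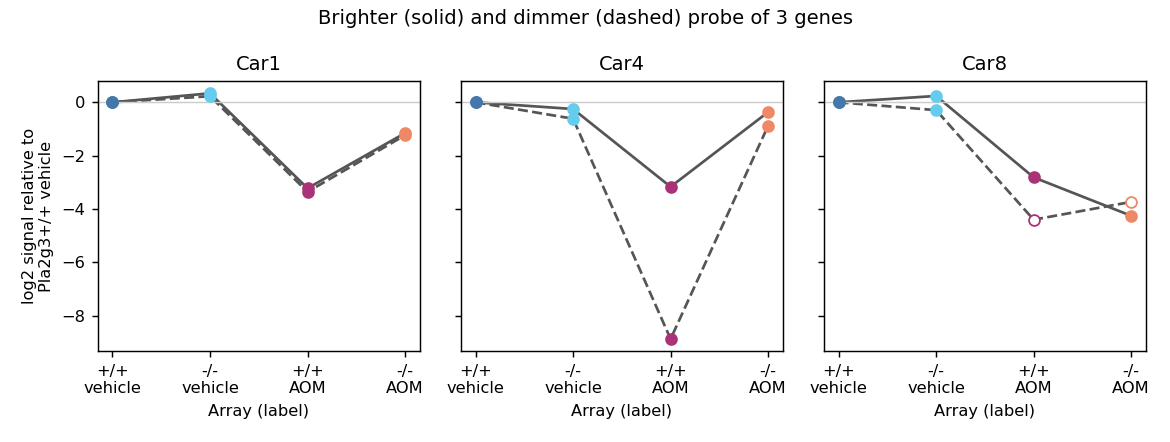
Log2 signal relative to the *Pla2g3*+/+ vehicle array for both probes of *Car1*, *Car4* and *Car8* on the 4 arrays. Lines are solid for the brighter and dashed for the dimmer probe, with open symbols for signals not well above background. The *Car4* probes part on the *Pla2g3*+/+ AOM array, at -3.17 and -8.87, and lie much closer on the other arrays.

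Among the transmembrane enzymes, *Car9*, which regulates pH at the cell surface and marks hypoxic tumor tissue in many organs, gave 5.55, 5.98, 3.44 and 7.05. It changed less than most members: AOM lay 1.61-fold below vehicle in *Pla2g3*+/+ (log2 -0.69) and 1.18-fold above it in *Pla2g3*-/- (log2 0.24). The AOM pools differed by 2.05-fold (log2 1.04, error 0.20), which is also at the threshold. *Car12*, its close relative on basolateral membranes, gave 3.34, 3.57, 0.881 and 2.23. It was 3.79-fold lower with AOM in *Pla2g3*+/+ (log2 -1.92) and 1.60-fold lower in *Pla2g3*-/- (log2 -0.68), and the AOM pools differed by 2.53-fold (log2 1.34).

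*Car14*, a transmembrane enzyme of kidney, brain and other organs, gave 0.172, 0.194, 0.0368 and 0.277. The *Pla2g3*+/+ AOM pool lay 4.67-fold below vehicle (log2 -2.22, error 0.23) and 7.53-fold below the AOM pool labeled *Pla2g3*-/- (log2 2.91). In the pools labeled *Pla2g3*-/- AOM lay 1.43-fold above vehicle (log2 0.52, error 0.21). *Car2*, *Car9* and *Car14* were the members whose highest signal was in the AOM pool labeled *Pla2g3*-/- and whose lowest was in the other AOM pool. For *Car2* the rise over vehicle was smaller than the error of the ratio, and for *Car9* it was little larger.

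*Car8*, the protein without catalytic activity, had its own order of pools. Its brighter probe gave 0.569, 0.671, 0.0811 and 0.0299, so that the AOM pool labeled *Pla2g3*-/- was lowest, 2.71-fold below *Pla2g3*+/+ AOM (log2 -1.44, error 0.27). Both AOM pools lay far below vehicle, by 7.02-fold in *Pla2g3*+/+ (log2 -2.81) and 22.5-fold in *Pla2g3*-/- (log2 -4.49). The dimmer probe gave 0.194 and 0.158 with vehicle and was not well above background after AOM. Set against the dimmest signal that counted as detected on each AOM array, its fall was at least 15.4-fold in *Pla2g3*+/+ and at least 10.8-fold in *Pla2g3*-/-, and it gave no value between the AOM pools. The order of the AOM pools therefore rests on 1 probe, and by normexp it was inside 2-fold (log2 -0.49). With vehicle the probes differed in sign between genotypes (0.24 for the brighter, -0.29 for the dimmer). The *Car8* probes lie on chromosome 4 on the minus strand, at chr4:8070545-8070604 (brighter) and chr4:8068657-8068716 (dimmer), 1888 bases apart.

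The genes are not scattered evenly in the genome. In the RefSeq gene table, *Car13*, *Car1*, *Car3* and *Car2* follow each other on chromosome 3 with 0 protein-coding genes between them, a cluster of cytosolic enzymes that arose by duplication. Being neighbors did not go with equal change: in that order, the log2 ratios of AOM to vehicle in *Pla2g3*+/+ were -0.65, -3.22, -5.67 and -1.83, and those between the AOM pools were 0.93, 2.07, 3.98 and 1.87. Every step from a gene to the next along the chromosome was larger than the error on a ratio, 0.20 to 0.23.

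The promoters of *Car9* and *Car14* are shown because these members alone lay above vehicle with AOM in *Pla2g3*-/- by more than the error, and because *Car9* is a known hypoxia target. RefSeq promoters (GRCm38.p6, not the build of the probes) were matched for 5 of the 10 members, *Car4*, *Car7*, *Car9*, *Car12* and *Car14*, and were missing for *Car1*, *Car2*, *Car3*, *Car8* and *Car13*. The core of the hypoxia response element was searched as ACGTG or GCGTG on either strand, in windows from 250 bases before to 50 after the start site. Printed are the 60 bases before the start site, 5′ to 3′ on the strand of the gene, with the match in capitals, which reads ACGTG on the opposite strand. That of *Car9* lies at chr4:43506966-43507025 on the plus strand and that of *Car14* at chr3:95904686-95904745 on the minus strand.
*Car9* promoter: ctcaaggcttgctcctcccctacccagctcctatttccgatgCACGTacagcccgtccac
*Car14* promoter: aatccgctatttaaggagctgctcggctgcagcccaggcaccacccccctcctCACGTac

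The match begins 18 bases before the start site of *Car9* and 7 before that of *Car14*. The *Car4* window and 2 of 3 *Car7* windows also held the core, the *Car12* window did not, and 43.8% of all 32851 promoter windows held it, so that a match by itself is common. A match of letters is not a measured site.

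Carbonic anhydrases work with the transporters of bicarbonate, chloride and protons, and 24 genes of that kind were followed beside them. Between the AOM pools 11 of 23 with a value were higher in the pool labeled *Pla2g3*-/- and 4 lower (median 0.53). With AOM in *Pla2g3*+/+ 12 of 23 were lower and 4 higher (median -1.05), in *Pla2g3*-/- 0 were lower and 5 of 21 higher (median 0.37), and with vehicle 0 of 20 passed 2-fold (median 0.01). The transporters thus moved in both directions with AOM, and the difference between the lists was not tested.

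Bright genes among them followed different courses. *Aqp8*, an aquaporin of the colon surface, gave 93.4, 99.4, 0.358 and 54.1, so that it was lowest in the *Pla2g3*+/+ AOM pool as *Car1*, *Car2* and *Car4* were. *Slc9a3*, the apical sodium-proton exchanger, gave 9.21, 9.15, 17.9 and 5.21 and was highest there. *Slc26a3*, the chloride-bicarbonate exchanger that uses the product of these enzymes, was named after its values were seen and gave 9.97, 10.2, 0.140 and 26.8.

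**Figure D5:**
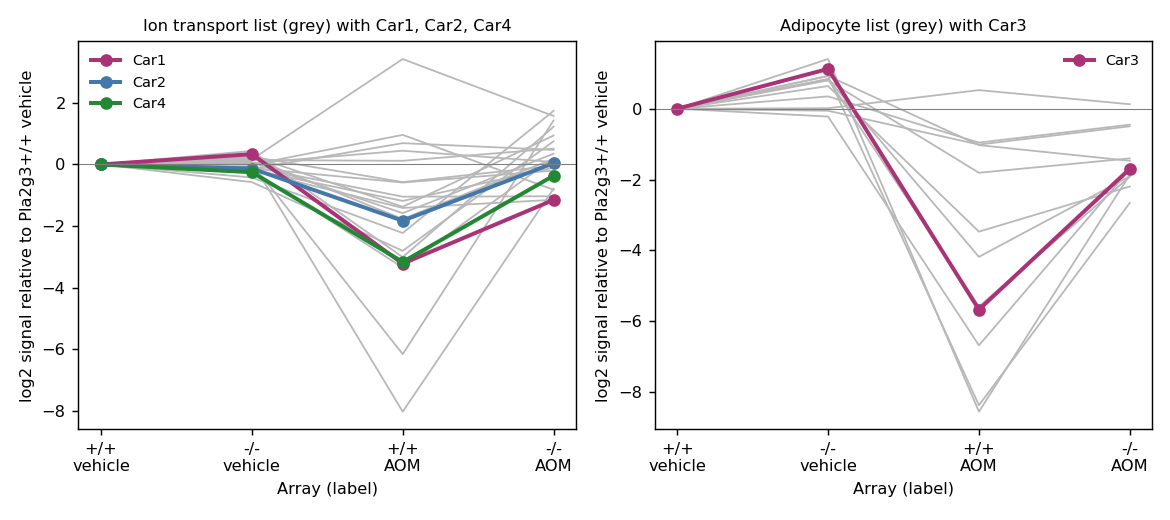
Log2 signal relative to the *Pla2g3*+/+ vehicle array, for 19 transporter genes (grey) with *Car1*, *Car2* and *Car4* on the left and for 11 adipocyte genes (grey) with *Car3* on the right, all well above background on both vehicle arrays and drawn also where an AOM signal was not. The carbonic anhydrases dip on the *Pla2g3*+/+ AOM array, where transporters lie on both sides of 0, and *Car3* lies below 0 on both AOM arrays as most adipocyte genes do.

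Marker genes of the cell types that the tissue can hold moved with the same pools, and their part in the carbonic anhydrase values was not tested. For differentiated colonocytes, the known source of *Car1* and *Car4*, 13 of 15 markers were higher and 0 lower between the AOM pools (median 2.02), and 14 of 15 were lower with AOM in *Pla2g3*+/+ (median -2.65). Their summed signal was 1058, 958, 153 and 774, lowest in the same pool as *Car1* and *Car4*. *Guca2a*, the guanylin precursor, gave 294, 279, 4.84 and 106, *Krt20* gave 93.2, 107, 22.5 and 82.3, and *Lypd8* gave 178, 121, 45.1 and 124. In *Pla2g3*-/-, 6 of 15 colonocyte markers were lower and 2 higher with AOM (median -0.38), beside a member median of -0.34.

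General epithelial markers moved less, with 0 of 8 past 2-fold between the AOM pools (median 0.67) and 3 of 8 lower with AOM in *Pla2g3*+/+ (median -0.61). *Krt8* gave 200, 203, 126 and 198, *Krt18* 109, 103, 101 and 77.3, and *Lgals4* 320, 302, 126 and 230. The folds of *Car1* and *Car4* in the *Pla2g3*+/+ AOM pool, 9.32 and 8.97, were larger than those of these 3 epithelial genes there.

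Markers of the crypt base and of Wnt signaling ran the other way from the carbonic anhydrases, with 12 of 12 higher with AOM in *Pla2g3*+/+ (median 2.93) and 11 of 12 lower in the AOM pool labeled *Pla2g3*-/- than in the other (median -2.78). *Notum* gave 2.13, 1.94, 10.3 and 1.70, *Ascl2* 1.66, 1.48, 7.66 and 1.62, and *Smoc2* 3.89, 4.08, 9.37 and 3.07. Of 9 proliferation genes with a value, 3 were higher with AOM in *Pla2g3*+/+ (median 0.71) and 2 lower between the AOM pools (median -0.75). *Pcna* gave 10.8, 10.0, 13.9 and 7.16, *Mcm6* 8.80, 9.46, 11.6 and 6.60, and *Mki67* 2.89, 4.33, 7.91 and 8.63.

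Goblet cell markers were lower with AOM in 9 of 9 cases in *Pla2g3*+/+ (median -3.46) and in 7 of 9 in *Pla2g3*-/- (median -1.33). Among the members, *Car1*, *Car3* and *Car8* were lower in both, the *Car1* call in *Pla2g3*-/- depending on the normalization as given above. *Zg16* gave 444, 404, 20.0 and 168, *Clca1* 336, 313, 30.5 and 133, and *Tff3* 261, 259, 29.1 and 103.

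*Car3* is abundant in fat, and 11 of 12 adipocyte markers gave a value. With vehicle 9 of the 11 lay above 0 in the pool labeled *Pla2g3*-/- (median 0.80, against -0.02 for all genes), where *Car3* was at 1.12, although *Cfd* was the only 1 past 2-fold. With AOM 9 of 11 were lower in *Pla2g3*+/+ (median -3.38) and 8 of 11 in *Pla2g3*-/- (median -2.40), beside -5.67 and -2.82 for *Car3*. Between the AOM pools 6 of 11 were higher in the pool labeled *Pla2g3*-/- (median 1.27).

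The summed adipocyte signal was 33.0, 53.8, 7.91 and 13.7, highest and lowest in the same pools as *Car3*. *Cfd*, which encodes adipsin, gave 7.25, 19.2, 0.0193 and 1.99, *Fabp4* 7.08, 12.3, 2.02 and 2.68, and *Pparg* 7.41, 7.12, 3.67 and 5.25. The defining marker *Adipoq*, named after its values were seen, gave 1.33, 2.52, 0.0040 and 0.211 and was not well above background in the *Pla2g3*+/+ AOM pool. How much of the *Car3* signal came from fat was not tested.

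Smooth muscle markers were 10 of 10 lower with AOM in *Pla2g3*+/+ (median -4.34) and 10 of 10 higher between the AOM pools (median 4.15), with 0 of 10 past 2-fold with vehicle (median 0.04). *Tagln* gave 194, 202, 11.6 and 158, *Acta2* 77.4, 82.6, 11.47 and 92.9, and *Actg2* 97.0, 104, 4.31 and 100.05, the same low pool as that of *Car2* and *Car4*. Slow skeletal muscle is the other known source of *Car3*. The skeletal muscle list held fast-fiber and general muscle genes, with none specific to slow fibers. Its markers gave a value for 6 of 10 genes, with 5 lower with AOM in *Pla2g3*+/+ (median -2.12) and 4 higher between the AOM pools (median 2.99). With vehicle their median was -0.38, and *Car3* was at 1.12. *Acta1* gave 2.03, 1.70, 0.610 and 2.56, *Tnni2* 0.562, 0.409, 1.45 and 1.02, and *Pvalb* 0.449, 0.364, 0.0984 and 0.0845.

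*Car1* and *Car2* are also major proteins of red cells. Erythroid markers ran against them, with 6 of 7 higher with AOM in *Pla2g3*+/+ (median 2.08) and 5 of 7 lower between the AOM pools (median -1.72). *Hba-a1* gave 6.08, 7.70, 26.5 and 5.55, *Hbb-bt* 4.97, 6.15, 21.0 and 5.96, and *Hbb-b2* 1.5, 2.77, 7.95 and 2.42, so their highest pool was the lowest pool of *Car1* and *Car2*. The globin genes are near-identical copies, and their probes may share signal. How much of the *Car1* and *Car2* signal came from red cells was not tested.

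*Car7* is known from neurons, and of 11 markers of enteric neurons and glia 8 were lower with AOM in *Pla2g3*+/+ (median -2.50) and 8 were higher between the AOM pools (median 1.60), beside -1.56 and 1.01 for *Car7*. Colonocyte markers had the same directions (medians -2.65 and 2.02), and the source of the *Car7* signal was not tested. *Snap25* gave 14.4, 12.2, 4.19 and 9.21, *Syp* 1.39, 1.29, 0.746 and 0.905, and *Stmn2* 1.26, 1.37, 0.139 and 1.01.

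Markers of tissue outside the colon wall were detected as well. Pancreatic acinar markers were higher in the vehicle pool labeled *Pla2g3*-/- for 12 of 12 (median 5.27), with a summed signal of 0.484, 52.0, 4.55 and 0.276. In the vehicle comparison *Car3* was the member called, and in the comparison of AOM with vehicle in *Pla2g3*-/- 12 of 12 acinar markers were lower (median -5.86). *Ctrb1* gave 0.0865, 2.21, 0.0618 and 0.0557, *Cel* 0.0773, 0.618, 0.0853 and 0.0647, and *Pnliprp1* 0.0853, 0.465, 4.35 and 0.0655. In the *Pla2g3*+/+ AOM pool, where 4 of 12 acinar markers were well above background, *Pnliprp1* alone gave 4.35 of the summed 4.55. *Car1*, *Car2* and *Car4* differed by at most 1.26-fold between the vehicle pools by their brightest probes.

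Squamous markers gave a median of 0.44 between the AOM pools, with 1 of 9 higher and 2 lower, and of 2.19 with AOM in *Pla2g3*-/-, with 5 of 9 higher. *Trp63* gave 3.86, 3.49, 3.53 and 3.99, *Sprr1a* 1.53, 1.30, 1.34 and 0.562, and *Krt13* 1.02, 1.09, 0.918 and 1.24. Keratins of the list, named after their values were seen, moved far more: *Krt5* gave 0.0561, 0.0515, 0.0266 and 15.3, *Krt14* 0.112, 0.0686, 1.55 and 2.49, and *Krt15* 0.0485, 0.0396, 5.46 and 3.17. The summed squamous signal was 6.97, 6.31, 13.4 and 27.6. It was highest in the AOM pool labeled *Pla2g3*-/-, where *Car2*, *Car9* and *Car14* were highest too, but *Krt5* alone gave 15.3 of the 27.6 there. Genes of position along the colon had a median of 0.79 between the AOM pools, with 3 of 10 higher, and of -0.01 with AOM in *Pla2g3*+/+. Of these, *Hoxb13* gave 44.0, 39.2, 24.4 and 63.3, *Hoxd13* 1.5, 1.01, 3.90 and 6.88, and *Cdx2* 9.07, 12.3, 0.751 and 2.2.

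For *Car9* the hypoxia response genes are the natural reference. All 20 had a value, and between the AOM pools 2 were higher and 1 lower (median 0.54), with *Car9* at 1.04. With AOM in *Pla2g3*+/+ 3 were higher and 3 lower (median -0.15, *Car9* -0.69), and in *Pla2g3*-/- 4 were higher and 1 lower (median 0.62, *Car9* 0.24). With vehicle 0 of 20 passed 2-fold (median -0.20, *Car9* 0.11).

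The glycolytic enzymes that lead this list moved little. *Ldha* gave 151, 160, 94.1 and 146, *Aldoa* 150, 139, 85.5 and 129, and *Pgk1* 33.3, 31.0, 27.3 and 39.4. Each was lowest in the *Pla2g3*+/+ AOM pool, as *Car9* was. The list as a whole did not share this course: with AOM in *Pla2g3*+/+, 7 of its 20 genes lay above 0 and 13 below.

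Of the other members of the family, *Car5a*, a mitochondrial enzyme best known from liver, was not well above background on any array, and its relative *Car5b* was so in the *Pla2g3*+/+ AOM pool alone at 0.0218. *Car6*, the secreted enzyme of saliva, gave 0.0429, 0.0162, 0.0172 and 0.0854, the value of 0.0162 not being well above background, and differed by 4.95-fold between the AOM pools. With AOM in *Pla2g3*-/- it was at least 3.75-fold higher. *Car10*, without catalytic activity, was detected in the vehicle pools alone by its brightest probe, at 0.0398 and 0.0368.

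*Car11*, also without catalytic activity, gave 0.231, 0.210, 0.0566 and 0.138, which is 4.09-fold lower with AOM in *Pla2g3*+/+ and 2.44-fold higher between the AOM pools. *Car15*, a lipid-anchored enzyme, gave 0.283, 0.287, 0.172 and 0.195 and passed 2-fold nowhere. The receptor phosphatases *Ptprg* and *Ptprz1*, which carry a carbonic anhydrase-like domain without catalysis, were higher with AOM in *Pla2g3*+/+. *Ptprz1* gave 0.305, 0.322, 3.71 and 1.15, a 12.2-fold rise, and *Ptprg* gave 0.159, 0.176, 0.396 and 0.311, a 2.49-fold rise. Of the 8 genes of this kind, 7 had a value with AOM in *Pla2g3*+/+, of which 2 were higher and 3 lower (median -0.72, against -2.07 for the 10 members). In the AOM pools 2 of 6 were higher and 1 lower (median -0.08).

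The genes whose pattern over the 4 arrays lay closest to that of the widest-ranging members were found by the root mean square distance of log2 signals centered on each gene's mean, among 18124 genes well above background on all 4. With 4 points that share their arrays, this is a description. For *Car3* the nearest were *Hsd3b3* (distance 0.36), *Hpd* (0.44), *Gcg* (0.47), *Slc13a2* (0.48) and *Fam183b* (0.48), and 6 genes lay within 0.5. *Hsd3b3*, a steroid dehydrogenase that is also on the list of colonocyte markers, gave 23.8, 26.0, 0.331 and 4.62. *Gcg*, the proglucagon gene of enteroendocrine L cells, gave 5.41, 4.95, 0.0611 and 1.32. The adipocyte marker *Adipoq*, not well above background in the *Pla2g3*+/+ AOM pool, could not enter this search. None of the 5 nearest genes shared the step of *Car3* between the vehicle pools, since for each the vehicle signals lay within 2-fold of each other.

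For *Car8* 19 genes lay within 0.5, the nearest being *LOC101056661* (0.17), *Cd7* (0.20), *Isx* (0.24), *Cst6* (0.27) and *Phf11b* (0.30). *Isx*, an intestinal homeobox gene, gave 7.46, 8.23, 1.44 and 0.517, and *Cd7*, a lymphocyte surface receptor, gave 0.793, 0.672, 0.0941 and 0.0417. All 5 had the lowest signal in the AOM pool labeled *Pla2g3*-/-, which follows from their choice by nearness to *Car8* and is no separate result. None of the other 9 members was lowest in that pool, and the *Car8* order itself rests on its brighter probe.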

How the data were processed

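Cy3-labeled RNA (27.7 ng per pool) was hybridized to 4 Agilent arrays on 1 slide. The authors deposited spot intensity from Feature Extraction 11.5.1.1, background-subtracted and detrended within each array, together with a table that is the ratio of this intensity to the 75th percentile of its array; the table was checked against the intensities and differed by at most 0.0181%. Groups came from the sample labels.

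Control spots were left out, and intensities were divided by the 75th percentile of the 43020 other spots. Outlier spots, 104 to 139 per array, counted toward that percentile and were then left out. The remaining spots of 1 probe were averaged on the log2 scale (median SD of replicate spots 0.0570 to 0.0644). Of 39429 probes, 27649 were named through RefSeq accessions and 11780 by the file. The brightest probe by mean log2 signal represented a gene, and every probe of a member is reported. A probe not well above background on 1 array of a pair gave a bound, set by the lowest detected signal of that array, and on both arrays no value. Each gene with a value or bound past 2-fold was called, as in the study. Errors of a log2 ratio were propagated from the software's spot error (0.20 to 0.27 for members with a brightest-probe value). Precision is limited by the number of arrays, 1 per group, which allows no test.

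Members and gene lists were chosen with earlier results of these data known. Lists covered other carbonic anhydrases, ion transport, hypoxia, colonocytes, crypt base, proliferation, adipocytes, skeletal and smooth muscle, erythroid cells, acinar cells, squamous epithelium, goblet cells, neurons and glia, epithelium and colon position. Named genes were all members, all other carbonic anhydrases, the 3 brightest of each further list and the 5 nearest to *Car3* and *Car8*; *Slc26a3*, *Adipoq*, *Krt5*, *Krt14* and *Krt15* were added after their values were seen. One gene of the transport list that this rule names is not reported here. Alternatives to this scaling were none, the median, quantile normalization, the percentile of probes detected on all arrays, normexp (offset 50) with quantile normalization and the deposited table. The mean or the dimmest probe, 2 detection filters and thresholds of 1.5- and 4-fold were also tried. Scripts, tested on simulated data, used Python 3.11.15, pandas 2.3.3, numpy 2.4.6, matplotlib 3.10.9, R 4.3.3 and limma 3.58.1.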

Additional observations from a re-analysis of the deposited data

Results flagged for a closer look

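In 4 cases the difference between a pair of arrays had opposite signs in the groups compared, each larger than the software's error for its pair of spots. The differences between groups were not tested, since each group had 1 array. *Car4* was lower in the vehicle pool labeled *Pla2g3*-/- than in *Pla2g3*+/+ (log2 -0.25) and higher in its AOM pool (log2 2.80), a difference of 3.05, and its dimmer probe had the same signs (-0.62 and 7.99). *Car8* was higher in that genotype with vehicle (0.24) and lower after AOM (-1.44), a difference of -1.68. This rests on the brighter probe: the dimmer probe had the opposite sign with vehicle (-0.29) and gave no value after AOM, and the mean over probes was -0.03 with vehicle. *Car9* was lower with AOM in *Pla2g3*+/+ (-0.69) and higher in *Pla2g3*-/- (0.24), a difference of 0.93, although without scaling both were above 0 (0.33 and 1.08). *Car14* did the same with -2.22 and 0.52, a difference of 2.74.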

How the results depend on the processing

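No paired analysis was possible because the labels give no replicate numbers and each group held 1 array, and for the same reason no array could be left out. Of 399 values for single members under the alternatives, 380 kept their side of 2-fold, 15 fell inside it and 4 passed it. Many of the 380 could not differ, so their number does not measure robustness. The 2 detection filters left every member value as it was, and the deposited table holds the same scaling. Members with 1 probe have the same value by the mean or the dimmest probe. No value past 2-fold in the report changed sign under the alternatives. Of those inside 2-fold, 15 did: 6 without scaling (with AOM, *Car9* 0.33 and *Car13* 0.37 in *Pla2g3*+/+, *Car4* 0.73, *Car7* 0.30, *Car12* 0.17 and *Car13* 0.72 in *Pla2g3*-/-), 7 under other normalizations (*Car4*, *Car7* and *Car13*) and *Car8* with vehicle by the mean over probes and the dimmest probe. Without scaling the median of all genes moved to 0.80 with AOM in *Pla2g3*+/+ and 0.70 in *Pla2g3*-/-, members lower with AOM in *Pla2g3*+/+ numbered 5 and members higher with AOM in *Pla2g3*-/- 3 (*Car2*, *Car9* and *Car14*, log2 1.02, 1.08 and 1.36). *Car8* was no longer lower between the AOM pools (0 members lower) with normexp (-0.49), with the mean over probes (-0.39) and with the dimmest probe, which gave no value. With normexp *Car3* also reached 0.997, just inside 2-fold, between the vehicle pools (0 members higher). At 4-fold, 0 members were higher with vehicle, 4 higher and 0 lower between the AOM pools, and 5 lower with AOM in *Pla2g3*+/+. *Car1* with AOM in *Pla2g3*-/- lay inside 2-fold by quantile normalization (-0.67), without scaling (-0.64) and by normexp (-0.70). *Car7* and *Car9* between the AOM pools did so without scaling (0.85 and 0.87), by normexp (0.93 and 0.99) and with the percentile of detected probes (0.96 and 0.99).

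Over all genes, the share of higher among called genes was 39.1% with AOM in *Pla2g3*+/+ and 38.1% in *Pla2g3*-/-. It became 49.6% and 48.1% by quantile normalization, 51.4% and 52.4% with the percentile of detected probes, 51.8% and 50.1% by normexp, and 86.6% and 89.4% without scaling. Between the vehicle pools 457 genes were higher and 318 lower, against 144 and 111 by normexp, 222 and 149 for genes detected on both arrays, and 1014 and 1116 with no filter. Between the AOM pools 3108 and 2745 became 1686 and 1569 by normexp and 2592 and 3276 without scaling, which turns the balance from 53.1% to 44.2% higher. With AOM in *Pla2g3*+/+ 3216 higher and 5014 lower became 2091 and 1947 by normexp and 9431 and 1462 without scaling, and in *Pla2g3*-/- 2123 and 3457 became 1153 and 1149, and 7767 and 923. What caused these shifts was not tested. Dim signals limit *Car8* after AOM, where its brighter probe is at 0.0811 and 0.0299 and detection ended near 0.0126 and 0.0146.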
